A study of Mus musculus with 4 samples.

Results

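Hox genes encode transcription factors with a homeodomain that assign position along the body axis and along the limb. In the mouse they lie in 4 clusters, Hoxa, Hoxb, Hoxc and Hoxd, and within a cluster the genes are numbered by paralogue group: genes of low number lie at the 3′ end and act in anterior regions, and genes of high number lie at the 5′ end and act in posterior regions and in distal parts of the limb. Adult muscle and connective tissue cells keep part of the Hox code of the place where they arose.

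The Hox genes were read here on every probe whose gene name in the scanner files is Hoxa, Hoxb, Hoxc or Hoxd followed by a number. The rule found 50 probes for 38 genes, of 41174 non-control probes with 27745 gene names on each array. On mm8, the build of the array annotation, the probes of the Hoxa cluster span chr6:52085352-52188658 with 14 probes for 11 genes. Those of the Hoxb cluster span chr11:96012144-96183286 with 15 probes for 10 genes, and those of the Hoxc cluster span chr15:102756397-102864186 with 9 probes for 8 genes. The Hoxd probes span chr2:74470787-74565841, with 12 probes for 9 genes.

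Skeletal muscle of mice fed ad libitum was taken at 10 weeks of age from 4 genotypes, with 1 one-colour array each: ob/ob TBP-2-/-, ob/ob, TBP-2-/- and WT. The ob/ob mutation removes leptin, the satiety hormone of fat tissue, and leads to obesity, and TBP-2 is the labels' name for Txnip, whose protein binds thioredoxin and restrains glucose uptake. The labels do not give the muscle, the strain, the sex, the extent of the TBP-2 deletion or whether RNA was pooled, and the genotype field of the ob/ob sample is spelled differently from its title, which was used. With 1 array per genotype a difference has no replicate check, a difference between genotypes cannot be told apart from one between the muscle pieces taken, and in bulk tissue fewer cells of a type and less RNA per cell cannot be told apart.

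Values are processed signals scaled so that the 75th percentile of every array is 288.4 units, and a probe's signal is compared across arrays, never with that of another probe. Sums over a marker list add the signals of different probes, so the brightest probes weigh most in them. The Txnip probe with the higher signal read 183 units in ob/ob TBP-2-/- and 12276 units in ob/ob, and 816 units in TBP-2-/- and 13608 units in WT. All 7 markers of muscle fibres were well above background on each array.

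Promoter sequences are shown for genes at which the arrays differed most between the ob/ob genotypes and the others within the posterior end of the clusters (Hoxa13, Hoxa11, Hoxd10), with Hoxa7 as a Hoxa gene that differed the other way. They are from RefSeq on GRCm38.p6, 5′ to 3′ on the gene's strand, and cover 250 bases before and 50 bases after the annotated start. They are Hoxa13 at chr6:52260831-52261130, Hoxa11 at chr6:52245761-52246060 and Hoxa7 at chr6:52218524-52218823, all on the minus strand, and Hoxd10 at chr2:74691641-74691940 on the plus strand. Capitals mark matches to TTTANG on either strand, the kind of site that posterior HOX proteins and CDX proteins can bind.
Hoxa13: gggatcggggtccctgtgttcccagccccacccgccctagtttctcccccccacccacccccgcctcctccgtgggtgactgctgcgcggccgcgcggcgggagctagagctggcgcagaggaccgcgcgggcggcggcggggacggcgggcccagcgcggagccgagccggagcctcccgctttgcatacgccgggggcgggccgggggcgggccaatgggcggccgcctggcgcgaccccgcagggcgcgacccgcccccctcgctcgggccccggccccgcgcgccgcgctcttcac
Hoxa11: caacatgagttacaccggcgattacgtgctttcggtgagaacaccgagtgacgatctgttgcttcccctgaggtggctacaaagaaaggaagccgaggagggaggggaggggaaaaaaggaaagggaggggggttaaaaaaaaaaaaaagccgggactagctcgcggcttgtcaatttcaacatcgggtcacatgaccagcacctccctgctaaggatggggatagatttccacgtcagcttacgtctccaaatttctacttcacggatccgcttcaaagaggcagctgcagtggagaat
Hoxd10: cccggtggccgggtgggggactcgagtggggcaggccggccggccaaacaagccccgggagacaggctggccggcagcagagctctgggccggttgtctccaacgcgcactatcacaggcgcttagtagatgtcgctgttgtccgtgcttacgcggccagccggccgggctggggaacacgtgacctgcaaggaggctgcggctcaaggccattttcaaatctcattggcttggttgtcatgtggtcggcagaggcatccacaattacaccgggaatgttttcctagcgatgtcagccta
Hoxa7: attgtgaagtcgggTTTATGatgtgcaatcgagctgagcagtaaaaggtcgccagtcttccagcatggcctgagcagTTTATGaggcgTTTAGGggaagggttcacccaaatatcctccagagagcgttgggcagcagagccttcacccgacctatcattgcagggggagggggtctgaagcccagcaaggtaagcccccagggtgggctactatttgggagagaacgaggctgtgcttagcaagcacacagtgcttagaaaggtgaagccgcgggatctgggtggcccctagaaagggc

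RefSeq promoters were matched for 22 of the 38 genes, with 24 start sites. A CG dinucleotide occurred 45 times in the Hoxa13 window, 22 times in that of Hoxd10, 15 times in that of Hoxa11 and 9 times in that of Hoxa7. The median was 14.5 over the 24 Hox windows and 7 over all 32851 promoter windows of the same length, and 20 of the 24 Hox windows lay above 7. TTTANG was found in 8 of the 24 Hox windows and in 32.7% of all windows, and Hoxa7 held 3 matches. TGATNNAT, the composite site of a HOX protein with a PBX partner, was found in 4 of the 24 windows and in 8.85% of all windows. TGACAG, a site of MEIS proteins, was found in 2 of the 24 and in 19.2% of all. Both strands were searched for each, and the windows of Hoxa13, Hoxa11 and Hoxd10 held none of the 3 motifs.

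Muscle of every genotype gave signal from about the same number of Hox genes. Well above background, by the scanner software's flag, were 27 of 50 Hox probes in ob/ob TBP-2-/- (54.0%, against 57.5% of all probes on that array), 28 in ob/ob (56.0%, against 56.9%), 28 in TBP-2-/- (56.0%, against 58.8%) and 27 in WT (54.0%, against 55.1%). These probes stood for 23, 24, 24 and 24 genes in the same order. On all 4 arrays 25 probes for 22 genes were well above background, 6 probes were so on 1 to 3 arrays, and 19 were so on none.

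**Figure D1:**
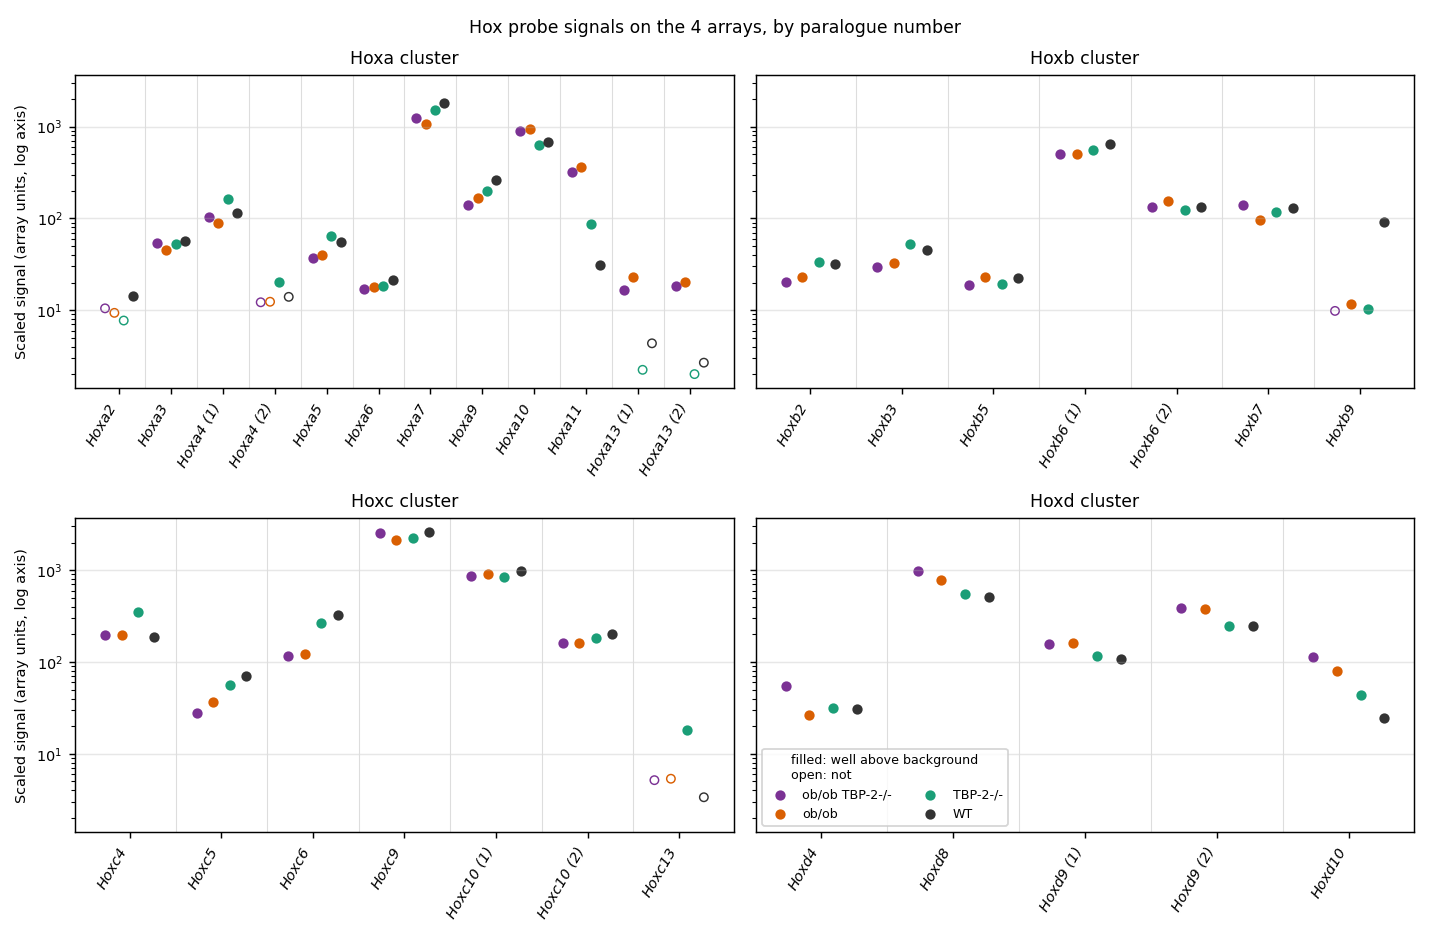
Scaled signal (log axis) of each Hox probe that was well above background on at least 1 array, on the ob/ob TBP-2-/-, ob/ob, TBP-2-/- and WT arrays, in panels by cluster and from low to high paralogue number; a number in brackets tells probes of a gene apart, and each point is 1 array. Filled points are well above background: 25 probes have 4 filled points and 6 have 1 to 3, and Hoxa13 is filled in both ob/ob genotypes and open in the other two.

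The genes without signal lay at different places in each cluster. Genes with no probe well above background on any array included Hoxb1, Hoxb4, Hoxb8, Hoxb13, Hoxc8, Hoxc12, Hoxd1, Hoxd3, Hoxd11, Hoxd12 and Hoxd13. Hoxd was thus below background from Hoxd11 to Hoxd13, the genes that shape the distal limb. Hoxb1 is printed on 10 spots, and 1 of them was marked as an outlier in ob/ob, with 37.2 raw units against 2.32 to 2.98 on the other 9 spots. Below background does not show that a transcript was absent, since dim signals are not resolved. The lowest signal that counted as well above background was about 10.1 scaled units in ob/ob TBP-2-/- and ob/ob, 8.82 in TBP-2-/- and 11.5 in WT. Brighter signals could also fail the flag: the second Hoxa4 probe, with 14.0 units in WT, was not well above background there.

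Relative to each array's 75th percentile, the ob/ob genotypes had more signal from Hoxa10, Hoxa11 and Hoxa13 and from Hoxd8, Hoxd9 and Hoxd10. They had less from several anterior and central genes of Hoxa, Hoxb and Hoxc. Hoxa11, needed with Hoxd11 for the forearm bones and the kidney, read 324 units in ob/ob TBP-2-/- and 362 units in ob/ob, against 87.5 units in TBP-2-/- and 31.1 units in WT. Among Hox probes well above background on both arrays it had the highest difference in both comparisons: 3.54 ± 0.25 on the log2 scale for ob/ob minus WT (11.6-fold) and 1.89 ± 0.21 for ob/ob TBP-2-/- minus TBP-2-/- (3.70-fold), where ± is the standard error of the scanner software's error model. None of the 8 spots around the Hoxa11 spot differed 2-fold from the other arrays, in ob/ob, ob/ob TBP-2-/- or WT.

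Hoxa13, the most posterior gene of its cluster, which patterns the hand and foot and the urogenital tract, was well above background in the ob/ob genotypes alone. Its first probe read 16.7 units in ob/ob TBP-2-/- and 23.2 units in ob/ob, and was not well above background in TBP-2-/- (2.24 units) or WT (4.36 units). The second read 18.3 units in ob/ob TBP-2-/- and 20.4 units in ob/ob, against 2.01 units in TBP-2-/- and 2.68 units in WT, both not well above background. A level below background has only a bound, set at the lowest signal that counts as well above background on that array or at the probe's own signal, whichever is higher. Some probes brighter than that lowest signal were not well above background either, and the bound leaves out the error of dim signals. Every bound given here and in later paragraphs is therefore nominal and may be too high. By that nominal bound the first Hoxa13 probe was 2.01-fold or more higher in ob/ob, compared with WT, and the second 1.77-fold or more. Between ob/ob TBP-2-/- and TBP-2-/- the nominal bounds of the 2 probes were 1.89-fold and 2.08-fold higher. Of all probes with such a bound in this direction, 16.1% reached 2-fold for ob/ob minus WT and 35.4% for ob/ob TBP-2-/- minus TBP-2-/-, so a bound of this size was not rare.

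Hoxa10, which shapes the lumbar region and the thigh and is expressed in adult muscle stem cells of the hindlimb, read 898 units in ob/ob TBP-2-/- and 943 units in ob/ob, against 631 units in TBP-2-/- and 682 units in WT. Its differences, 0.47 ± 0.20 for ob/ob minus WT and 0.51 ± 0.20 for ob/ob TBP-2-/- minus TBP-2-/-, were below 2-fold, with both ob/ob arrays above both others.

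In the Hoxd cluster 5 probes for 4 genes were measured, and the other 7 probes were below background on all arrays. The mean ob/ob difference was 0.29 for Hoxd4, 0.71 for Hoxd8, 0.50 and 0.64 for Hoxd9 and 1.53 for Hoxd10, the measured member nearest the 5′ end. The median of all probes was -0.003. Of the 5 probes, 4 were higher in both ob/ob comparisons, as were 6664 of all 21734 probes measured on all arrays, and Hoxd4 was not. Hoxd10, which acts in hindlimb motor neurons and knee patterning, read 112 units in ob/ob TBP-2-/- and 79.3 units in ob/ob, against 43.5 units in TBP-2-/- and 24.7 units in WT. The 2 groups of arrays did not overlap, and the differences were 1.68 ± 0.28 for ob/ob minus WT (3.21-fold) and 1.37 ± 0.22 for ob/ob TBP-2-/- minus TBP-2-/- (2.59-fold). With normexp background correction, which lowers differences of dim probes, both were short of 2-fold (0.57 and 0.74). Hoxd8 read 976 units in ob/ob TBP-2-/- and 783 units in ob/ob, against 555 units in TBP-2-/- and 512 units in WT. Hoxd9 differed alike on both its probes, by 0.58 and 0.64 for ob/ob minus WT and by 0.42 and 0.63 for ob/ob TBP-2-/- minus TBP-2-/-. Hoxd4, at the 3′ side, had 54.7 units in ob/ob TBP-2-/- and 26.6 units in ob/ob, against 31.4 units in TBP-2-/- and 30.9 units in WT, so that its ob/ob differences had opposite signs (0.80 ± 0.23 in TBP-2-/- mice and -0.22 ± 0.26 otherwise).

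The Hoxc genes with the largest differences, Hoxc5 and Hoxc6, were lower in the ob/ob genotypes. Hoxc6, an anterior thoracic gene, read 116 units in ob/ob TBP-2-/- and 123 units in ob/ob, against 266 units in TBP-2-/- and 325 units in WT. Its differences were -1.40 ± 0.21 for ob/ob minus WT (2.64-fold lower) and -1.19 ± 0.21 for ob/ob TBP-2-/- minus TBP-2-/- (2.29-fold lower). The first became -0.75 with spike-in scaling and the second -0.88 with normexp, each short of 2-fold. Hoxc5, which lies next to it toward the 3′ end, read 27.6 units in ob/ob TBP-2-/- and 36.3 units in ob/ob, against 56.4 units in TBP-2-/- and 70.6 units in WT. Neither gene's groups overlapped, and the Hoxc5 differences of -0.96 ± 0.23 and -1.03 ± 0.24 lay on both sides of 2-fold; with normexp the second was -0.38. Farther toward the 5′ end the differences were small: Hoxc9, with 2540.3 units in ob/ob TBP-2-/- and 2141 units in ob/ob, against 2239 units in TBP-2-/- and 2578 units in WT, had -0.27 ± 0.20 for ob/ob minus WT and 0.18 ± 0.20 for ob/ob TBP-2-/- minus TBP-2-/-, and the 2 probes of Hoxc10, a hindlimb gene, lay between -0.31 and 0.01.

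Of the 8 Hoxa probes measured on all arrays, those of Hoxa4, Hoxa5, Hoxa6, Hoxa7 and Hoxa9 were lower in both ob/ob genotypes than in either of the others. The differences were less than 2-fold, and 21.8% of all probes separated in this direction. With spike-in scaling only Hoxa7 of these genes still separated, and with normexp or quantile normalization Hoxa6 did not. Hoxa3, next to them toward the 3′ end, overlapped, with 54.1 units in ob/ob TBP-2-/- and 44.9 units in ob/ob, against 53.2 units in TBP-2-/- and 56.7 units in WT. Hoxa5, which patterns the neck, shoulder and lung, read 37.4 units in ob/ob TBP-2-/- and 39.8 units in ob/ob, against 63.7 units in TBP-2-/- and 54.8 units in WT. Hoxa7 read 1241 units in ob/ob TBP-2-/- and 1064 units in ob/ob, against 1505 units in TBP-2-/- and 1798 units in WT. Hoxa9 read 140 units in ob/ob TBP-2-/- and 165 units in ob/ob, against 199 units in TBP-2-/- and 259 units in WT. The mean of the 2 ob/ob differences was -0.51 for Hoxa4, -0.61 for Hoxa5, -0.18 for Hoxa6, -0.52 for Hoxa7 and -0.58 for Hoxa9, and then 0.49 for Hoxa10 and 2.71 for Hoxa11, so that the sign turned between Hoxa9 and Hoxa10. That of Hoxa6 is smaller than its standard errors of 0.36.

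Hoxb2 and Hoxb3, at the 3′ end of Hoxb, were also lower. Hoxb2, a hindbrain gene, read 20.5 units in ob/ob TBP-2-/- and 22.9 units in ob/ob, against 33.9 units in TBP-2-/- and 31.5 units in WT. Hoxb3 read 29.4 units in ob/ob TBP-2-/- and 32.3 units in ob/ob, against 53.2 units in TBP-2-/- and 45.1 units in WT. For Hoxb5, both probes of Hoxb6 and Hoxb7 the mean ob/ob difference lay between -0.24 and 0.15, and the probes of Hoxb6 differed in sign.

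**Figure D2:**
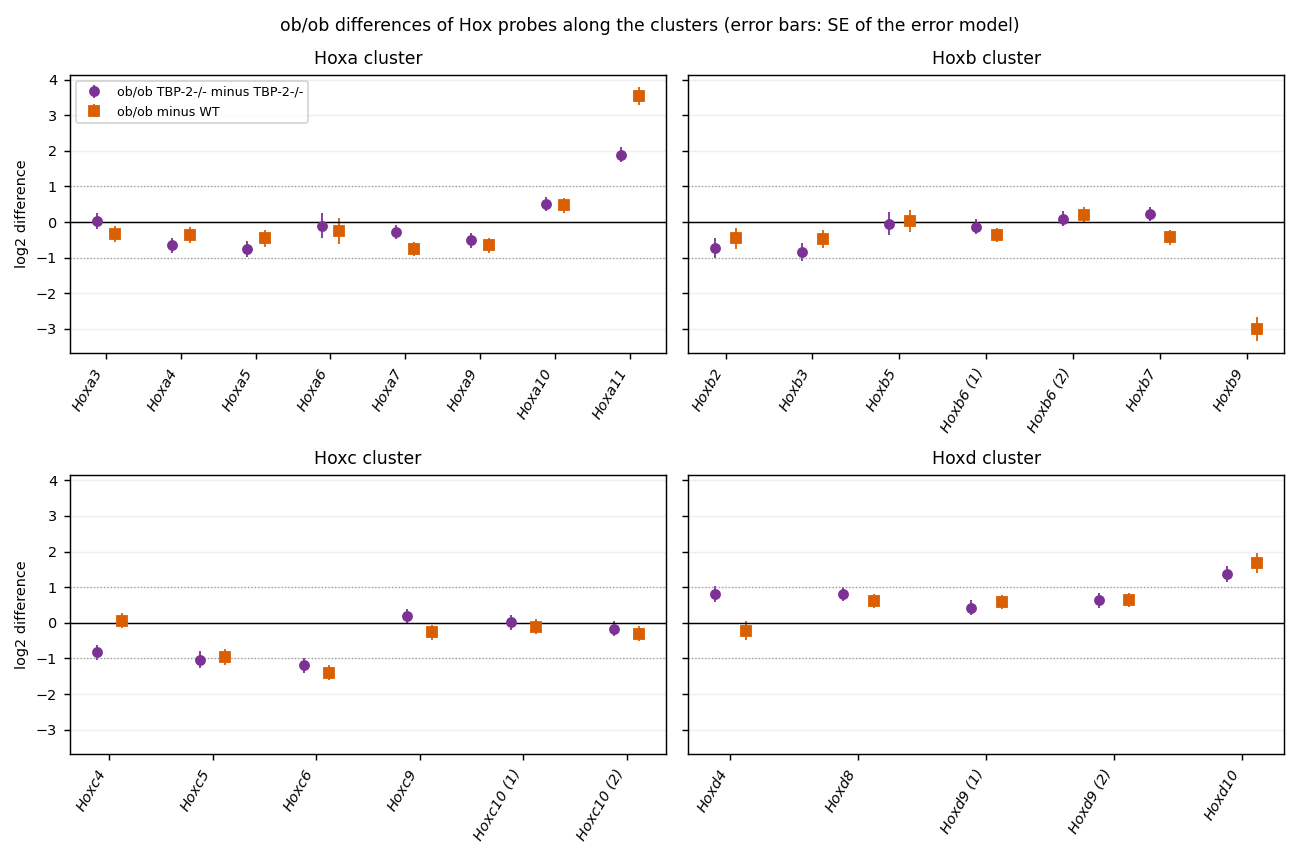
log2 difference of each Hox probe that was well above background on both arrays of a pair, for ob/ob TBP-2-/- minus TBP-2-/- (circles) and ob/ob minus WT (squares), by cluster and paralogue number; bars are standard errors of the error model and dotted lines mark 2-fold. In both comparisons Hoxa11 and Hoxd10 lie above 2-fold and Hoxc6 below it, and Hoxa differences turn from negative at Hoxa9 to positive at Hoxa10.

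Counted over the clusters, 2 of 26 measured Hox probes were 2-fold or more higher in ob/ob than in WT (Hoxa11, Hoxd10), against 1.77% of all measured probes, and 2 were as much lower (Hoxc6 and Hoxb9), against 1.64%. Between ob/ob TBP-2-/- and TBP-2-/- mice 2 of 25 were higher (Hoxa11, Hoxd10), against 1.63%, and 2 were lower (Hoxc6, Hoxc5), against 1.5%. The median Hox difference was -0.29 for ob/ob minus WT (all probes -0.03) and -0.05 for ob/ob TBP-2-/- minus TBP-2-/- (all probes 0.04). Of the 25 probes measured on all arrays, 6 had both ob/ob genotypes above both others (background 21.6%): Hoxa10, Hoxa11, Hoxd8, both Hoxd9 probes and Hoxd10. A further 11 had both below (background 21.8%): Hoxa4, Hoxa5, Hoxa6, Hoxa7, Hoxa9, Hoxb2, Hoxb3, 1 probe of Hoxb6, Hoxc5, Hoxc6 and 1 probe of Hoxc10. The share above was near the background. With spike-in scaling 9 probes were above (33.2% of all probes) and 3 below (3.29%: Hoxa7, Hoxc5 and Hoxc6), so most of the 11 lower probes overlapped the other arrays there.

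The 2 ob/ob differences share no array. They had the same sign for 18 of 25 Hox probes (72.0%) and for 61.1% of all probes, and their Pearson correlation was 0.85 over the 25 Hox probes, 0.82 without Hoxa11, and 0.42 over all 21734 probes. These values describe probes that share 4 arrays and carry no p-value. By paralogue group, in classes chosen after the values were seen, the median of the mean ob/ob difference was -0.59 over 3 probes of groups 1 to 3, -0.24 over 13 probes of groups 4 to 8 and 0.49 over 9 probes of groups 9 to 13. With spike-in scaling, which placed the median of all probes at 0.26, the 3 medians were -0.33, 0.02 and 0.75, so that the central class changed sign. With normexp they were -0.15, -0.22 and 0.34, so that groups 1 to 3 were no longer the lowest class. Spearman's correlation of paralogue number with the mean difference was 0.57 over the 25 probes and 0.51 without Hoxa11. It was 0.36 within Hoxa, 0.58 within Hoxb, 0.58 within Hoxc and 0.67 within Hoxd, over 5 to 8 probes each. Within groups 4 to 8 it was 0.18, and within groups 9 to 13 0.33. The median mean difference was -0.34 in Hoxa, -0.17 in Hoxb, -0.31 in Hoxc and 0.64 in Hoxd, so the pooled value mixes paralogue number with cluster. Groups 9 to 13 ranged from -0.58 to 2.71.

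The additive model over the 4 arrays (limma, 1 residual degree of freedom, Benjamini-Hochberg adjustment over 23702 probes) is the only test these arrays allow, and its error is the departure from additivity, not the spread between mice. For the ob/ob genotype 0.0464% of all probes were called higher, and of 28 Hox probes 1, the second Hoxa13 probe (adjusted p = 0.0404). Both Hoxa13 probes entered the fit only through the ob/ob arrays, where they are high, and their fitted size rests on signals below background in TBP-2-/- and WT, so nothing is read from that call beyond the bounds given for Hoxa13. With such signals set to a floor its adjusted p was 0.216. limma's adjusted p was 0.118 with normexp, 0.0837 with quantile normalization and 0.0741 with no filter on dim probes, and the call was kept with spike-in scaling. With normexp the fitted ob/ob effect was 0.27 for the first Hoxa13 probe and 0.44 for the second, against 2.65 and 3.06 in the main fit. No Hox probe was called lower, where 0.0548% of all probes were. The ± values of this fit are its standard errors. limma gave adjusted p = 0.114 for Hoxd10 (1.53 ± 0.18), 0.131 for Hoxc6 (-1.30 ± 0.17), 0.164 for Hoxa11 (2.71 ± 0.42) and 0.168 for Hoxc5 (-0.998 ± 0.16). At an unadjusted p under 0.05, limma had 8 Hox probes higher and 7 lower of 28, where 7.29% and 5.90% of all probes were. The 8 include both Hoxa13 probes, which entered only through the ob/ob arrays, so nothing is read from the count of higher probes.

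Between TBP-2-/- genotypes and their counterparts few Hox probes differed 2-fold. In TBP-2-/- against WT, 1 of 26 probes was 2-fold or more higher (background 1.51%) and 1 lower (background 0.823%). The higher one was Hoxa11, by 1.49 ± 0.25 (2.81-fold), with the signals given for it beside the ob/ob genotypes, and 0.66 with normexp. In ob/ob TBP-2-/- against ob/ob, 1 of 27 was higher (background 1.69%), Hoxd4 by 1.04 ± 0.24 (2.06-fold; 0.51 with normexp and 0.53 with spike-in scaling), and 0 were lower (background 0.862%). In that array 2 of the 8 spots around the Hoxd4 spot also read 2-fold above the other arrays. The median Hox difference was -0.11 for TBP-2-/- minus WT (all probes -0.07) and -0.07 for ob/ob TBP-2-/- minus ob/ob (all probes 0.02).

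The lower one in TBP-2-/- was Hoxb9, a thoracic gene, on 1 of its 2 probes. That probe read 9.82 units in ob/ob TBP-2-/-, not well above background, 11.6 units in ob/ob and 10.2 units in TBP-2-/-, against 92.3 units in WT. The differences were -3.18 ± 0.33 for TBP-2-/- minus WT and -3.00 ± 0.33 for ob/ob minus WT, and both share the WT array. On the WT array 3 of the 8 neighbouring spots were also 2-fold above the other arrays, and the other Hoxb9 probe was below background on all 4 arrays.

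Hoxc4 was 1.86-fold higher in TBP-2-/- (347 units) than in WT (187 units), and equal in ob/ob TBP-2-/- (195 units) and ob/ob (195 units). Hoxc13 was well above background in TBP-2-/- alone, with 18.1 units, which bounds it at least 1.57-fold above WT. Hoxa2 was so in WT alone, with 14.3 units, and the second probe of Hoxa4 in TBP-2-/- alone, with 20.3 units, while its other probe was well above background on all arrays.

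**Figure D3:**
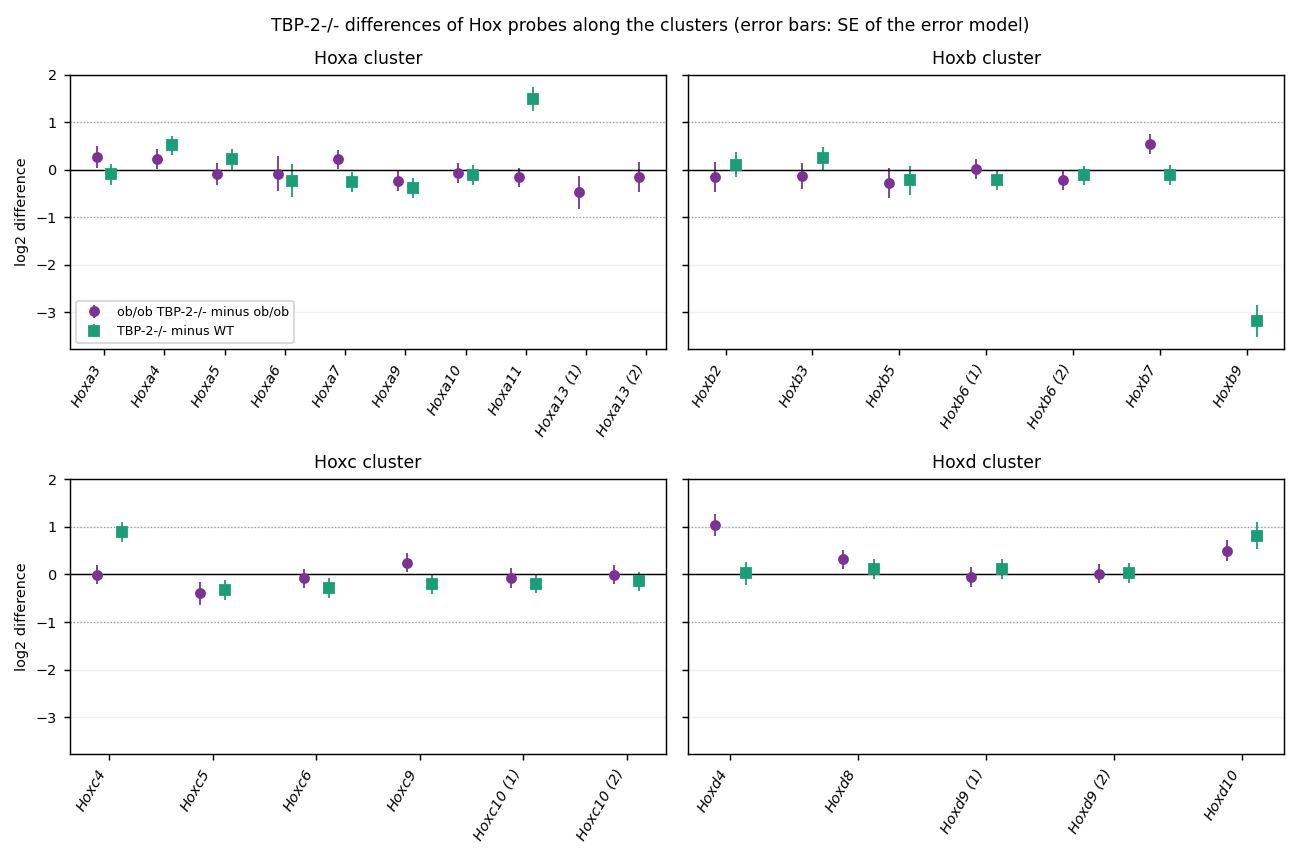
log2 difference of each Hox probe that was well above background on both arrays of a pair, for ob/ob TBP-2-/- minus ob/ob (circles) and TBP-2-/- minus WT (squares), with standard errors of the error model; dotted lines mark 2-fold. Hoxa11 and Hoxb9 pass 2-fold in TBP-2-/- minus WT and Hoxd4 in ob/ob TBP-2-/- minus ob/ob, and most other probes lie within 0.5 of 0.

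Of the 25 probes measured on all arrays, 1 had both TBP-2-/- genotypes above both others (Hoxd4, background 13.5%) and 3 had both below (Hoxb5, 1 probe of Hoxb6 and 1 probe of Hoxc10, background 18.3%). The 2 TBP-2 differences, which share no array, had the same sign for 14 of 25 Hox probes (56.0%) and for 55.1% of all probes. For the TBP-2-/- genotype limma called no Hox probe of 28 after Benjamini-Hochberg adjustment, where it called 0.038% of all probes higher and 0.0338% lower. At an unadjusted p under 0.05, limma had 1 Hox probe higher and 1 lower of 28, where 6.22% and 2.64% of all probes were. The higher one was Hoxd10 and the lower one was the first Hoxa13 probe. That Hoxa13 probe entered the fit only through the ob/ob arrays and was not well above background in TBP-2-/- or WT. Nothing is therefore read from it.

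HOX proteins bind DNA with TALE-class partners of the PBX and MEIS families. Of 9 such cofactor genes, 8 were measured in each comparison, with 0 higher and 1 lower by 2-fold in ob/ob against WT and none in the other 3 comparisons. Of all measured probes, 1.77% were 2-fold higher and 1.64% lower in ob/ob against WT. Meis2, which with Meis1 marks the proximal limb, read 101 units in ob/ob TBP-2-/- and 78.8 units in ob/ob, against 169 units in TBP-2-/- and 188 units in WT. Meis1 read 26.5 units in ob/ob TBP-2-/- and 33.0 units in ob/ob, against 46.8 units in TBP-2-/- and 52.4 units in WT, so Meis1 and Meis2 were lower on both ob/ob arrays. Meis3 overlapped, with 23.4 units in ob/ob TBP-2-/- and 18.5 units in ob/ob, against 22.4 units in TBP-2-/- and 13.5 units in WT. Pbx3 stood the other way, by 0.42 ± 0.21 for ob/ob minus WT and 0.43 ± 0.21 for ob/ob TBP-2-/- minus TBP-2-/-.

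Polycomb and Trithorax proteins hold Hox genes silent or active. Of 21 such genes on the array, 0 were 2-fold higher in any comparison and 1 was lower in each comparison except ob/ob minus WT, which had 0. Of all measured probes, 1.51% to 1.77% were 2-fold higher and 0.823% to 1.64% lower, depending on the comparison. Mll1 (Kmt2a), a methyltransferase that keeps Hox genes active, read 231 units in ob/ob TBP-2-/-, against 465 units in ob/ob, 485 units in TBP-2-/- and 467 units in WT. Cbx2, a Polycomb subunit, read 13.9 units in TBP-2-/- and 33.1 units in WT, a difference of -1.25 ± 0.30. It was not well above background in ob/ob TBP-2-/- (8.13 units), where it was at least 2.56-fold lower than in ob/ob (25.9 units).

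Other transcription factors mark limb and trunk position. Of 26 on the list, 9 were measured on all arrays, and 2 of these had both ob/ob genotypes above both others and 3 had both below, against 21.6% and 21.8% of all probes. Lbx1, a factor of migrating limb muscle precursors, did not separate, with 372 units in ob/ob TBP-2-/- and 459 units in ob/ob, against 425 units in TBP-2-/- and 550.0 units in WT. Pitx1, which gives the hindlimb its identity, read 92.4 units in ob/ob TBP-2-/- and 57.9 units in ob/ob, against 157 units in TBP-2-/- and 139 units in WT. Its differences were -1.26 ± 0.21 for ob/ob minus WT and -0.77 ± 0.21 for ob/ob TBP-2-/- minus TBP-2-/-.

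Six2, a factor of limb tendon and kidney progenitors, read 289 units in ob/ob TBP-2-/- and 266 units in ob/ob, against 50.6 units in TBP-2-/- and 7.26 units in WT, which is not well above background. Irx5 was not well above background in ob/ob TBP-2-/- (10.1 units) or ob/ob (4.34 units), and read 48.0 units in TBP-2-/- and 118 units in WT. Irx3 and Pax3, named after their values were seen, were likewise well above background in TBP-2-/- and WT and not in the ob/ob genotypes. Pax3, which marks muscle progenitors that enter the limb and stays on in some adult muscles, was thus at least 5.52-fold lower in ob/ob than in WT and at least 3.26-fold lower in ob/ob TBP-2-/- than in TBP-2-/-. Tbx15, a factor of fast glycolytic fibres, had 5102 units in ob/ob TBP-2-/- and 4173 units in ob/ob, against 4343 units in TBP-2-/- and 5301 units in WT, with no separation.

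**Figure D4:**
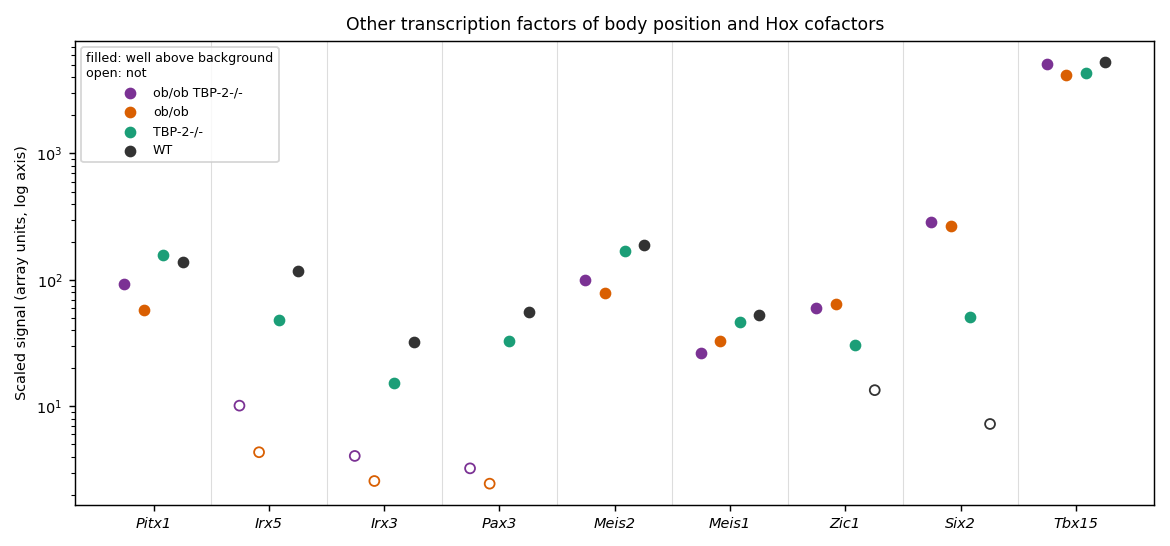
Scaled signal (log axis) of 9 transcription factors, chosen after their values were seen, in ob/ob TBP-2-/-, ob/ob, TBP-2-/- and WT; each point is 1 array, filled where well above background. Pitx1, Meis2 and Meis1 are lower in both ob/ob genotypes, Irx5, Irx3 and Pax3 are open there, Six2 and Zic1 are higher there, and Tbx15 does not separate.

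Markers of slow fibres and of tendon also differed between the arrays, and their part in the Hox differences was not tested. All 9 slow-fibre markers were lower in both ob/ob genotypes than in both others, where 21.8% of all probes were. Myl3 was so by a small margin, with 202028 units in ob/ob TBP-2-/- against 202323 units in TBP-2-/-. The list summed to 405996 units in ob/ob TBP-2-/-, 471773 units in ob/ob, 672812 units in TBP-2-/- and 741897 units in WT. Of 10 tendon markers, 7 of the 9 measured on all arrays were higher in both ob/ob genotypes than in both others, where 21.6% of all probes were. The tendon list summed to 37667 units in ob/ob TBP-2-/-, 28513 units in ob/ob, 20348 units in TBP-2-/- and 7115 units in WT. Its median difference was 4.02 for ob/ob minus WT but 0.82 for ob/ob TBP-2-/- minus TBP-2-/-. In the latter comparison 3 of 10 markers were 2-fold or more higher, against 1.63% of all measured probes. Tnmd, the tendon membrane protein tenomodulin, read 1234 units in ob/ob TBP-2-/- and 710 units in ob/ob, against 427 units in TBP-2-/- and 33.6 units in WT. For Hoxa11, Six2 and the tendon list alike, WT was the lowest array and TBP-2-/- the next, and a link between them was not tested. Other lists varied. Both ob/ob arrays were above both others for 0 of 10 fibroblast markers and 3 of 6 smooth muscle and pericyte markers, and below for 2 and 1.

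Beside the TBP-2 differences, 6 of 8 adipocyte markers were 2-fold or more higher in ob/ob TBP-2-/- against ob/ob (median 1.30) and 3 of 8 in TBP-2-/- against WT (median 0.80). Their summed signal was 74217 units in ob/ob TBP-2-/- and 40167 units in ob/ob, and 93674 units in TBP-2-/- and 61849 units in WT. Of 8 Schwann cell markers, 1 was so in ob/ob TBP-2-/- and 3 in TBP-2-/-, and the list summed to 12549 units in ob/ob TBP-2-/- and 8291 units in ob/ob, and 10782 units in TBP-2-/- and 4773 units in WT. The tendon list moved more in TBP-2-/- against WT: its median was 3.67, with 7 of 9 markers past 2-fold upward and 1 downward. In ob/ob TBP-2-/- against ob/ob the tendon median was 0.41, with 1 of 10 past 2-fold upward. Of all measured probes, 1.69% were 2-fold or more higher in ob/ob TBP-2-/- against ob/ob. In TBP-2-/- against WT 1.51% were as much higher and 0.823% lower. The part of these lists in the TBP-2 differences was not tested.

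Transcripts next to the Hox genes were read on 13 listed genes and 9 other probes inside the cluster spans. Of 10 listed genes measured on all arrays, 2 had both ob/ob genotypes above both others and 2 had both below, close to the shares of all probes, and Evx2, Lnp and Mtx2, which flank Hoxd, did not separate. Skap2, the gene beyond the 3′ end of Hoxa, read 316 units in ob/ob TBP-2-/- and 268 units in ob/ob, against 525 units in TBP-2-/- and 674 units in WT. Its differences were -1.33 ± 0.20 for ob/ob minus WT and -0.73 ± 0.20 for ob/ob TBP-2-/- minus TBP-2-/-. The noncoding 1700109F18Rik inside Hoxd, at chr2:74510948-74511007 on mm8, read 119 units in ob/ob TBP-2-/- and 80.6 units in ob/ob, against 51.3 units in TBP-2-/- and 55.8 units in WT. Its second probe was below background on all arrays. 9530018H14Rik, beside Hoxa13, was well above background in ob/ob TBP-2-/- (15.8 units) and ob/ob (15.4 units) and not in TBP-2-/- (9.73 units) or WT (10.7 units). 5730596B20Rik, inside Hoxa, read 52.3 units in TBP-2-/- and between 2.14 and 2.47 units on the other arrays, where it was not well above background.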

How the data were processed

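Per the file headers, the deposited spot intensity values were made by the authors with Agilent Feature Extraction 9.5.3.1, which subtracts background within an array and does not scale between arrays. The deposited value table is log2 of the same signals, scaled to each array's 75th percentile and centred on each probe's median, as comparison with the scanner signals shows. Its column medians are 0.00913 for ob/ob TBP-2-/-, -0.0116 for ob/ob, -0.0621 for TBP-2-/- and 0.0912 for WT, and the treatment of its low values is not given in the sources used.

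The measure here was log2 of the processed signal minus its 75th percentile on that array, control probes left out (261, 309, 306 and 279.9 raw units in the order above). Spots marked as outliers were left out (110, 59, 62 and 78), replicate spots were averaged, and no spot was saturated. A pair of arrays was compared on probes well above background on both. The number of arrays limits the precision: standard errors come from the scanner software's error model and cover technical error only. limma 3.58.1 in R 4.3.3 fitted both genotypes additively to probes well above background on at least 2 arrays, with a threshold of 0.05, and was tested on simulated data. Alternatives were normexp (offset 50), quantile and spike-in scaling (7 probes), the authors' value table, no filter on dim probes, 1.5-fold and, added after the data were seen, a floor for dim signals and leaving out the bright Hoxb9 probe.

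Named Hox genes are those 2-fold different, bounded at 2-fold or called in any comparison, with other members by their range, and up to 4 members of each other list with the largest differences. Members outside that rule (Hoxa4, Hoxa5, Hoxa6, Hoxa7, Hoxa9, Hoxa10, Hoxb2, Hoxb3, Hoxc4, Hoxd8, Hoxd9, Irx3, Lbx1, Pax3, Tbx15) were given their values after these were seen. The members and lists were chosen with earlier results of these data known. Some members of the gene lists are not reported here.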

Additional observations from a re-analysis of the deposited data

Results flagged for a closer look

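Hoxa11 differed between TBP-2-/- and WT by 1.49 on the log2 scale and between ob/ob TBP-2-/- and ob/ob by -0.16, so the difference that goes with loss of TBP-2 was of opposite sign in lean and ob/ob mice. With 1 array per genotype this contrast between the 2 differences was not tested. The second value is smaller than its standard error of 0.20.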

How the results depend on the processing

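The counts of Hox probes past 2-fold depended on the handling of low signals. With normexp background correction the count was 1 for TBP-2-/- minus WT, 0 for ob/ob TBP-2-/- minus ob/ob and 1 for ob/ob TBP-2-/- minus TBP-2-/-. With no filter on dim probes it was 7, 3 and 9 in that order and 8 for ob/ob minus WT, and the median of ob/ob TBP-2-/- minus TBP-2-/- was 0.19. At 1.5-fold it was 4 for TBP-2-/- minus WT, 9 for ob/ob minus WT and 12 for ob/ob TBP-2-/- minus TBP-2-/-, where 8.62%, 13.4% and 11.4% of all probes passed. Quantile normalization gave 0 for ob/ob TBP-2-/- minus ob/ob. Spike-in scaling gave 4 for TBP-2-/- minus WT, 0 for ob/ob TBP-2-/- minus ob/ob and 7 for ob/ob minus WT, with medians of 0.14, -0.58 and 0.36, where the medians of all probes were 0.18, -0.49 and 0.61. Without the bright Hoxb9 probe, an alternative chosen after the data were seen, the count was 1 for TBP-2-/- minus WT. In the additive fit the TBP-2-/- genotype had 1 Hox call with normexp (598 over all probes) and 1 with spike-in scaling (135), Hoxb9 in both. The ob/ob genotype had 7 with normexp (1089 over all 23702 probes), 0 with quantile normalization (0), 4 with spike-in scaling (278), 0 with no filter (0), 2 over the 21734 probes on all 4 arrays (97; Hoxc6 and Hoxd10) and 0 with dim signals at a floor (6), against 11 higher and 13 lower over all probes as reported, where the set of probes tested or the values of dim probes differ by construction. The causes of the other changes were not tested. Hoxa11 kept 2-fold for ob/ob minus WT and for ob/ob TBP-2-/- minus TBP-2-/- under normexp, quantile, spike-in scaling and the authors' value table. Of the 11 named 2-fold differences, 6 no longer passed under normexp, 1 under quantile and 2 under spike-in scaling; none changed sign. The lowest signal well above background in WT was about 11.5 scaled units, and some brighter signals were not well above background. Signals near or below that level are not resolved. No paired analysis was possible because each genotype has 1 array and the labels carry no replicate numbers.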
